A study of Mus musculus with 18 samples.

Results

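The response of RAW264.7 cells to 20 uM cGAMP alone was measured by mRNA sequencing in 3 cGAMP libraries set against 3 DMSO (vehicle) libraries, chosen by their treatment labels, out of 18 libraries in the series. RAW264.7 is an established mouse line with macrophage-like properties that grows in DMEM with fetal bovine serum, and the labels give its genotype as WT. Cells of both groups were kept for 6 h in DMEM without serum before RNA was taken, so both carry the same loss of serum. A further group, 20 uM SB24011 alone, which the series title describes as blocking the contact of STING with TRIM29, was used as a second reference. All cells come from 1 line, and no label says whether the 3 libraries of a group are separate cultures, so p-values measure the spread between these libraries, which may be technical. Of 45777 genes in the table, 14650 had enough reads to be tested, in libraries of 45165780 to 65810517 counts.

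cGAMP is the cyclic dinucleotide that the DNA sensor cGAS makes when DNA reaches the cytosol. It binds STING on the endoplasmic reticulum, and STING then recruits the kinase TBK1, which phosphorylates the transcription factor IRF3. IRF3 and NF-kB switch on the interferon beta gene, and secreted interferon acts through its receptor, the JAK kinases and the transcription factors they activate on a large set of interferon-inducible genes. In macrophages these genes include antiviral proteins, GTPases that attack vacuoles of intracellular pathogens, chemokines and the machinery of antigen presentation.

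The cells had all 10 genes chosen as macrophage markers, and markers of other cell types were in part at 0. All 10 macrophage markers were tested, with a summed level of 5187 to 5797 CPM (TMM-scaled counts relative to library size) with cGAMP and 5381 to 6244 CPM in DMSO. The epithelial and mast cell markers had no count in any of the 6 libraries. The same was true of 3 of 7 B cell, 4 of 7 T cell, 5 of 6 NK cell, 5 of 6 neutrophil, 4 of 5 fibroblast and 2 of 6 dendritic cell markers, and of none of 4 endothelial markers. Every marker of another cell type that was called was higher with cGAMP. Among them the T cell kinase gene Lck rose (log2 change 1.45 ± 0.13 SE, cGAMP over DMSO), and the summed T cell markers were at 15.7 to 19.8 CPM with cGAMP and 5.93 to 7.69 CPM in DMSO. The endothelial genes Cdh5 (2.15 ± 0.41) and Kdr (3.13 ± 0.37) rose, with the 4 endothelial markers summing to 2.32 to 2.67 CPM with cGAMP and 0.431 to 0.470 CPM in DMSO. The antibody chain gene Ighm (0.83 ± 0.28) lost its call without cGAMP replicate 1 (0.60) or 3 (0.87) or DMSO replicate 2 (0.68) or 3 (0.81), and the dendritic cell gene Xcr1 (1.14 ± 0.43) lost its call without any 1 library (1.05 to 1.27). The part of other cells in the results was not tested. In such bulk libraries a smaller number of cells and less RNA per cell cannot be told apart.

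The response was large, and more of the rises than of the falls were steep. Calls rest on edgeR's quasi-likelihood test with a Benjamini-Hochberg adjusted p below 0.05, and changes are log2 of cGAMP over DMSO with their SE. Of the 14650 genes tested, 2290 were called higher with cGAMP (15.6% of all tested) and 2903 were called lower (19.8%), in all 5193 genes (35.4%). At least 2-fold rises numbered 841 (5.74%) and at least 2-fold falls 260 (1.77%). Among the rises, 185 genes reached 16-fold and 92 reached 64-fold, and among the falls 22 and 8 did, by fitted values that for genes at 0 in 1 group depend on the prior count. The median called rise was 0.69 on the log2 scale (interquartile range 0.34 to 1.53) and the median called fall was -0.41 (-0.64 to -0.28). For 2943 genes (20.1%) the 95% interval of the change lay within 0.26 log2 units of 0. The cGAMP and DMSO libraries did not overlap for 6966 genes (47.5%), with cGAMP above for 2918 (19.9%) and below for 4048 (27.6%). With only the cGAMP and DMSO libraries fitted, 2643 genes were higher and 2216 lower, so which direction held more calls depended on the fit. The number of genes called lower also rests on the scaling: with library size alone in place of TMM, the median of all genes moved to -0.19, against -0.06 with TMM, and 24.9% of the called genes were higher with cGAMP, against 44.1% with TMM. The shares of all tested genes, 15.6% higher and 19.8% lower, and their median of -0.06 are the background for every list below.

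**Figure D1:**
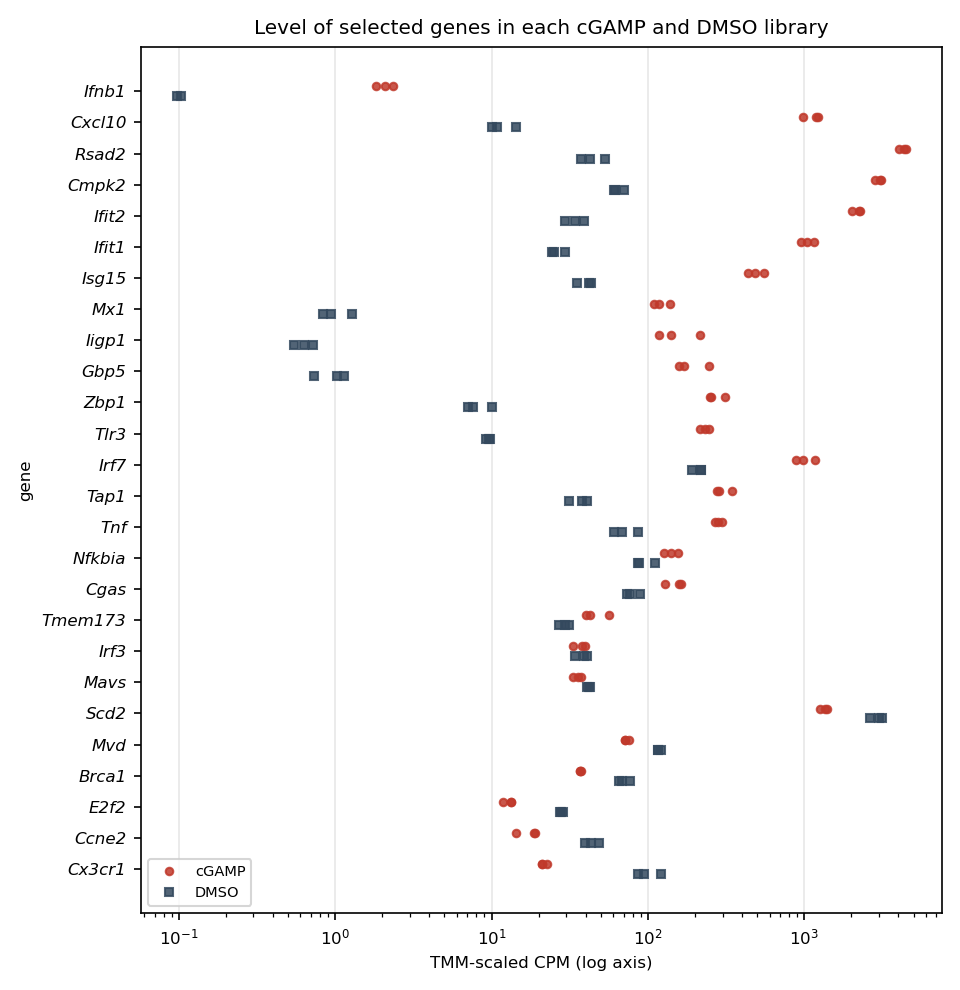
TMM-scaled CPM on a log axis for 26 genes, 1 point per library, with cGAMP as circles and DMSO as squares; a library with no count is not drawn (1 DMSO library for Ifnb1). The cGAMP and DMSO points overlap only for Irf3 among these genes, which lie to the right with cGAMP for the genes from Ifnb1 down to Tmem173 and to the left for those from Mavs down to Cx3cr1.

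Genes of the STING pathway itself mostly changed by less than 2-fold. Of 25 tested core members 10 were higher (40%) and 7 lower (28%) with cGAMP, against 15.6% and 19.8% of all tested genes. Rises of at least 2-fold numbered 2, and no fall reached 2-fold. The median change was 0.04. With library size alone 8 were higher and 11 lower, with a median of -0.09. Tmem173, the table's symbol for the STING gene, had 56.6, 40.1 and 42.9 CPM with cGAMP, against 31.4, 27 and 29.5 CPM in DMSO. The libraries did not overlap, and the change was 0.67 ± 0.15 (adjusted p = 0.00244). Cgas, the DNA sensor, had 162, 128 and 159 CPM with cGAMP, against 89.3, 73.8 and 76.8 CPM in DMSO, a change of 0.90 ± 0.13 (adjusted p = 5.57e-05). The kinase gene Tbk1 had 123, 109.8 and 123 CPM with cGAMP, against 71.7, 68.9 and 63.2 CPM in DMSO, a change of 0.80 ± 0.10 (adjusted p = 8.62e-06). All of these were above DMSO in 3 of 3 cGAMP libraries. Irf3, the factor that the kinase activates, had 38.1, 33 and 39.8 CPM with cGAMP, against 41, 34.3 and 38.9 CPM in DMSO. Its libraries overlapped, and its change was -0.04 ± 0.08 (adjusted p = 0.754) with a 95% interval of -0.22 to 0.14. Of the rest, Azi2, an adaptor of TBK1, rose by 1.08 ± 0.12. The largest rise in the list was in Usp18, which removes ISG15 from proteins and restrains the interferon receptor, at 2.88 ± 0.15. Traf3, an adaptor for the kinases (-0.41 ± 0.06), the deubiquitinase gene Usp20 (-0.43 ± 0.07) and Rnf26, a ubiquitin ligase of STING (-0.36 ± 0.08), had the largest falls of the list. Trim29, the ubiquitin ligase in the series title, had 5 reads in cGAMP replicate 2 and none in the other 5 libraries, too few to test.

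Genes for the transport of cGAMP leaned lower. Of 10 tested in a list of transport and breakdown, 6 fell and 1 rose. The median of the 10 was -0.29, against -0.06 for all tested genes. Those that fell were the transport genes Slc19a1, Slc46a1, Lrrc8a, Lrrc8b, Lrrc8c and Abcc1. Slc19a1, a folate carrier that also imports cyclic dinucleotides, had 64, 75.2 and 66.6 CPM with cGAMP, against 95.1, 99.3 and 89.4 CPM in DMSO, a change of -0.46 ± 0.10 (adjusted p = 0.00214). Lrrc8b (-0.53 ± 0.08) and Lrrc8c (-0.63 ± 0.13), subunit genes of the volume-regulated anion channel, also fell. The member that rose was the breakdown gene Smpdl3a, a phosphodiesterase of the lysosome and cell surface, at 0.69 ± 0.08. Enpp1, the main hydrolase of extracellular cGAMP, had 4 reads over the cGAMP libraries and 6 over the DMSO libraries, too few to test. Enpp3 had no read in either group.

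Of 21 interferon genes, Ifnb1 alone had enough reads to test. Ifnb1 had 2.35, 2.07 and 1.83 CPM with cGAMP, against 0.103, 0 and 0.0980 CPM in DMSO. The groups did not overlap, and the change was 4.97 ± 0.46 (adjusted p = 2.55e-07), or 4.34 without DMSO replicate 2, the library with no read. Among the alpha interferon genes, Ifna2 had 2 reads, all in cGAMP replicate 1. Of 31 receptor and JAK-STAT genes 13 rose and 4 fell, with a median of 0.10 that turned to -0.03 with library size alone. Stat2 rose by 2.62 ± 0.17. Of the subunit genes of the interferon alpha and beta receptor, named after their values were seen, Ifnar1 fell (-0.17 ± 0.06), while Ifnar2, with 48.4 CPM with cGAMP and 52.3 CPM in DMSO, changed by -0.11 and was not called. Of 9 tested interferon regulatory factors and partners 8 rose, with a median of 1.21. Irf7, the factor that drives later interferon genes, had 1166, 884 and 978 CPM with cGAMP, against 191, 217 and 219.7 CPM in DMSO, a change of 2.27 ± 0.16 (adjusted p = 3.05e-08). Irf1 rose by 2.5 ± 0.25, and Batf2, a leucine zipper factor that works with Irf1 in macrophages, by 4.26 ± 0.18.

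Interferon-inducible genes rose nearly as a whole. Such genes were put together from 10 lists: the Ifit, GBP, IRG, OAS, PYHIN and Schlafen families, RNA sensors, the ISG15 system, interferon-inducible PARPs and other antiviral effectors. Of their 115 members 110 were tested, and 106 of these were called higher with cGAMP, 98 of them at least 2-fold, with a median of 3.00. Of the 185 genes that rose at least 16-fold, 41 stood in these lists. Over all tested genes 15.6% were called higher, 5.74% at least 2-fold. Of the other 4 members Mavs was called lower, and Ifi27l2a, Ifitm2 and Slfn3, named after their values were seen, were not called. Their summed share of all counts was 4.78%, 4.14% and 4.44% with cGAMP, against 0.776%, 0.744% and 0.691% in DMSO. The group means were 4.45% ± 0.322 with cGAMP and 0.737% ± 0.0429 in DMSO (SD, n = 3 each). The shares did not overlap, and the exact two-sided permutation test gave p = 0.1, the smallest that 3 against 3 allows. The lists were chosen with earlier results of these data known, so this p is a description and no independent test.

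**Figure D2:**
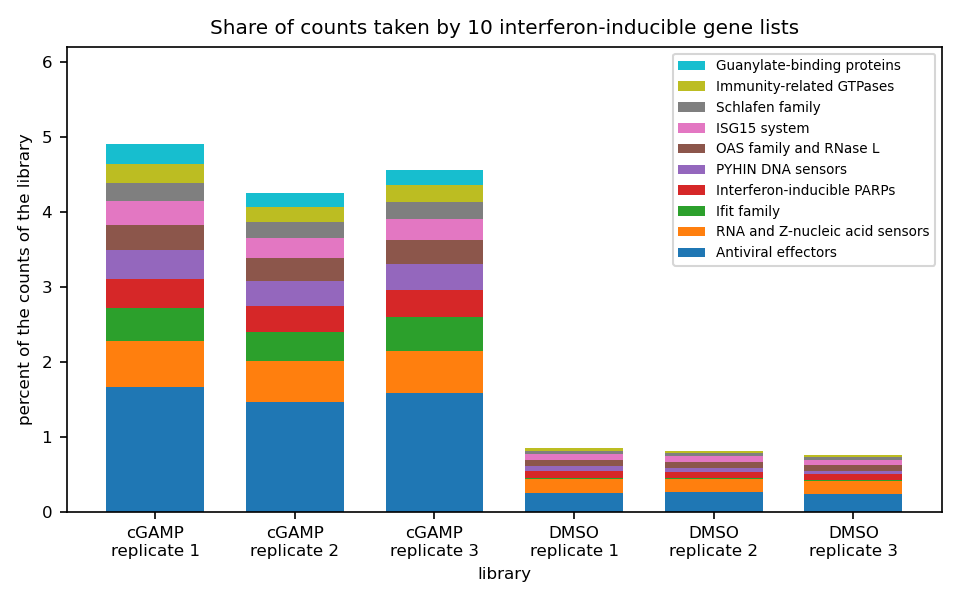
Stacked bars give, for each library, the percent of its counts in 10 interferon-inducible lists, with the 3 cGAMP libraries left of the 3 DMSO libraries; genes that stand in 2 lists are drawn in both, so a bar is slightly taller than the summed share of the 115 genes. Every cGAMP bar stands above 4% and every DMSO bar below 1%.

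The promoters of 4 of the genes fixed for description are shown because they carry, or lack, the letters of the interferon-stimulated response element (ISRE), which factors activated by interferon bind. Each runs from 250 bases before to 50 after the start in RefSeq's GRCm38 table, 5′ to 3′ on the gene's own strand, and capitals mark matches of the motif, GAAA, then any pair of bases, then GAAA again, on either strand.
Ifnb1, chr4:88522745-88523044, minus strand: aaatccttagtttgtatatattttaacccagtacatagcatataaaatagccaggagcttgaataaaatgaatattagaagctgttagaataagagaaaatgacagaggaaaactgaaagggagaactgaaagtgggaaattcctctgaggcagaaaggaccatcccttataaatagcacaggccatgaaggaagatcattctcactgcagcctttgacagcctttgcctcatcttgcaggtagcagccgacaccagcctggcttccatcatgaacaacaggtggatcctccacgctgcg
Cxcl10, chr5:92348840-92349139, minus strand: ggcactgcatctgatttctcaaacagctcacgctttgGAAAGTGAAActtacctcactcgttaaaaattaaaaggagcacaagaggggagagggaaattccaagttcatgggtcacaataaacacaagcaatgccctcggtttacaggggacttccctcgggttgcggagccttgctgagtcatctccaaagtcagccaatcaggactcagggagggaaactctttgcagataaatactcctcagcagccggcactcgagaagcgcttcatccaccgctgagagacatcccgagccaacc
Isg15, chr4:156200769-156201068, minus strand: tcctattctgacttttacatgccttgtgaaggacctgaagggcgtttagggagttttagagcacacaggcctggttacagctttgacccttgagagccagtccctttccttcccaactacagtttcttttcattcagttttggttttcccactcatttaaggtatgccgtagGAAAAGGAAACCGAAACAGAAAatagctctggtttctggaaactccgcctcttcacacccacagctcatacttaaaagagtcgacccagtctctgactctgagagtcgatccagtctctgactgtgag
Ifit1, chr19:34640639-34640938, plus strand: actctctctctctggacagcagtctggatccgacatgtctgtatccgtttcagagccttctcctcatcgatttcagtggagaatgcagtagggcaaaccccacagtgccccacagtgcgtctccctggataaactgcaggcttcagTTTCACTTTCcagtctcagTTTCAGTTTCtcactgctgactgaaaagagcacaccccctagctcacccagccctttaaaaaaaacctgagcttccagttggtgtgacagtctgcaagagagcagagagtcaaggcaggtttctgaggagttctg
Isg15 had 3 overlapping matches that began 78 bases before the start, Ifit1 had 2 on the other strand that began 104 and 85 bases before it, and Cxcl10 had 1 that began 213 bases before it. None of the searched motifs occurred in the Ifnb1 window, which says only that these letters are not there.

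The ISRE letters were more frequent the more steeply genes rose. Promoters were found for 10459 tested genes, and a gene counted as a match where any of its windows held the motif on either strand. The motif stood in 4.06% of all these genes. It stood in 18.8% of those at least 2-fold higher with cGAMP (116 of 618), in 27.7% of those at least 8-fold higher and in 4.88% of those that rose by less than 2-fold. Of genes at least 1.5-fold lower it was in 2.41%. Of the interferon-inducible lists it was in 57.8% (48 of 83). Among them were 5 of 6 Ifit genes, 5 of 5 GBP genes and 5 of 5 IRG genes with a promoter in the table. The shares were lower for the OAS and RNase L list (4 of 6) and the antiviral effectors (10 of 23). The CCAAT box, searched as a common motif with no tie to interferon, was in 40.8% of genes at least 2-fold higher and 43.5% of all. Motif matches are descriptions of these windows, and motifs that overlap were each counted.

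The largest gains in CPM of all called genes were those of Rsad2, Rnf213, Cmpk2 and Ifit2. Rsad2, whose product viperin makes a nucleotide that ends viral RNA chains, had 4442, 4028 and 4370.0 CPM with cGAMP, against 52.9, 42.5 and 37.6 CPM in DMSO, a change of 6.59 ± 0.44 (adjusted p = 3.73e-08). By length it had 928 ± 53.2 FPKM with cGAMP and 10.5 ± 2.13 FPKM in DMSO (SD, n = 3 each), which moved it to rank 43 among all genes with cGAMP, against rank 5642 in DMSO. Cmpk2, its neighbour on the chromosome and a mitochondrial nucleotide kinase, had 3091, 2812 and 3039 CPM with cGAMP, against 70.5, 62 and 61.1 CPM in DMSO, a change of 5.53 ± 0.33 (adjusted p = 1.05e-08). Both genes moved from the middle of the expressed range into the most abundant transcripts, and no library of either group crossed into the other. Rnf213, a giant ubiquitin ligase that coats bacteria and lipid droplets, had 5056, 4148 and 3932 CPM with cGAMP, against 796, 818 and 722 CPM in DMSO, a change of 2.49 ± 0.24 (adjusted p = 1.38e-06). Mx1, a GTPase that restrains influenza virus, had 139, 109 and 118 CPM with cGAMP, against 0.939, 0.840 and 1.27 CPM in DMSO, a change of 6.93 ± 0.34 (adjusted p = 1.81e-09). Ifi44 and Parp14, an ADP-ribosyltransferase, rose by 2.0 ± 0.11 and 2.99 ± 0.23. Of 28 tested antiviral effectors 26 rose and none fell, with a median of 2.42. The exceptions were Ifitm2 (0.04) and Ifi27l2a (0.43), named after their values were seen.

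All 6 Ifit genes, of a family with members that bind viral RNA that lacks host cap marks, rose, with a median of 6.16. Ifit2 had 2237, 2011 and 2264 CPM with cGAMP, against 39, 34 and 29.4 CPM in DMSO, a change of 5.99 ± 0.40 (adjusted p = 4.02e-08). Ifit1 had 1041, 955 and 1159.6 CPM with cGAMP, against 29.4, 25.2 and 24.3 CPM in DMSO, a change of 5.32 ± 0.35 (adjusted p = 3.01e-08). Ifit3 rose by 6.33 ± 0.38. Ifit1bl1 overlaps Ifit1 and Ifit3b on the map and Ifit3b closely resembles Ifit3, so reads may have been divided between them. Isg15, a ubiquitin-like modifier, had 549.5, 438 and 480.4 CPM with cGAMP, against 42.1, 43 and 35.3 CPM in DMSO, a change of 3.61 ± 0.23 (adjusted p = 1.49e-08), and all 7 genes of its system rose, Herc6, the ligase that attaches it in mice, by 3.82 ± 0.30. All 7 tested PARPs rose (median 2.1), as did 7 of 8 Schlafen genes (median 2.53), with Slfn5 at 3.03 ± 0.21 and Slfn4 at 3.6 ± 0.40.

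The GTPases that gather on pathogen vacuoles rose steeply. All 11 guanylate-binding protein genes rose, with a median of 5.95, and all 9 tested immunity-related GTPase genes, with a median of 4.91. Iigp1 had 215, 118 and 140.1 CPM with cGAMP, against 0.719, 0.634 and 0.549 CPM in DMSO, a change of 7.94 ± 0.62 (adjusted p = 2.12e-07). Gbp5 had 246, 157 and 169.6 CPM with cGAMP, against 0.734, 1.03 and 1.14 CPM in DMSO, a change of 7.64 ± 0.64 (adjusted p = 4.71e-07). Gbp2b had 524, 294 and 319 CPM with cGAMP, against 2.44, 2.17 and 2.04 CPM in DMSO, a change of 7.41 ± 0.67 (adjusted p = 1.07e-06). In each of these genes cGAMP replicate 1 was the highest library, and every cGAMP library was far above every DMSO library. Gbp11 had no count in DMSO and lay at least 124-fold higher with cGAMP, taking 3 counts over the 3 DMSO libraries as the floor. Tgtp1 rose by 6.72 ± 0.58, and reads of its near-identical neighbour Tgtp2 may be shared with it.

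Sensors of foreign DNA and RNA rose as a group. All 13 PYHIN genes, of the family that includes DNA-binding proteins of the nucleus and cytosol, rose, with a median of 4.32. Ifi209 had 136, 119 and 124 CPM with cGAMP, against 1.1, 1.4 and 1.25 CPM in DMSO, a change of 6.66 ± 0.32 (adjusted p = 1.37e-09). Ifi214 had no read in 2 DMSO libraries, and its change of 7.45 ± 0.47 became 6.83 without DMSO replicate 1 and rested on no DMSO read without replicate 2. Zbp1, which reads Z-form nucleic acid and can start necroptosis, had 309, 248 and 252 CPM with cGAMP, against 7.06, 9.99 and 7.57 CPM in DMSO, a change of 5.04 ± 0.23 (adjusted p = 4.21e-10). Ifih1, which encodes the RNA sensor MDA5, had 906, 821 and 827 CPM with cGAMP, against 68.4, 67.9 and 59 CPM in DMSO, a change of 3.71 ± 0.21 (adjusted p = 3.55e-09). Ddx60 rose by 4.09 ± 0.31. Of 13 genes of RNA and Z-nucleic acid sensing 12 rose. The adaptor gene below the RNA sensors, Mavs, had 33.1, 37.2 and 35.6 CPM with cGAMP, against 42.3, 40.6 and 42.2 CPM in DMSO, and its fall (-0.24 ± 0.08) was lost without cGAMP replicate 1 (-0.19) or 3 (-0.24) or DMSO replicate 1 (-0.23) or 3 (-0.23). All 10 tested OAS and RNase L genes rose, with a median of 1.47. Oasl1, which acts on translation of Irf7 in mice, had 1281, 1301 and 1249.7 CPM with cGAMP, against 114, 112 and 102 CPM in DMSO, a change of 3.55 ± 0.15 (adjusted p = 8.84e-11), and Oasl2 rose by 4.53 ± 0.19. The call of Oas1d rested on few reads in 2 cGAMP libraries and was lost without cGAMP replicate 1 or any 1 of the DMSO libraries.

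Of 25 tested Toll-like receptor genes and adaptors 16 rose and 5 fell, the falls at a share near the 19.8% of all genes. Tlr3, the endosomal receptor for double-stranded RNA, had 244, 214 and 233 CPM with cGAMP, against 9.76, 9.65 and 9.27 CPM in DMSO, a change of 4.59 ± 0.19 (adjusted p = 1.26e-10), and Tlr9, for DNA, rose by 2.18 ± 0.41. Irak3, a brake on receptor signalling (-1.0 ± 0.12), and the adaptor gene Ticam2 (-0.84 ± 0.08) fell.

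Genes of antigen presentation by MHC class I rose nearly throughout. Of 24 tested class I and peptide loading genes 21 rose and none fell, with a median of 1.08. Tap1, a chain of the peptide transporter, had 344, 277 and 284 CPM with cGAMP, against 40.7, 37.9 and 31.5 CPM in DMSO, a change of 3.04 ± 0.21 (adjusted p = 3.97e-08). Nlrc5, the transactivator of class I genes, had 227, 189 and 213 CPM with cGAMP, against 28.8, 26.2 and 25.5 CPM in DMSO, a change of 2.97 ± 0.18 (adjusted p = 6.8e-09). Tapbpl, a peptide editor, rose by 2.82 ± 0.28, and B2m, the light chain, from a higher base, by 0.76 ± 0.07. The chaperones of the endoplasmic reticulum in that list, Calr, Canx and Pdia3, changed by -0.00, 0.04 and 0.07 and were not called; they were named after their values were seen. Of 10 tested genes in the class II list 2 rose, Ctss and Rfx5, and 1 fell, Rfxap. The class II chain genes H2-Aa, H2-Eb1, H2-DMa, H2-DMb2 and H2-Oa, named after their values were seen, were not called. Ciita, the class II transactivator, had 20, 4 and 0 reads with cGAMP and none in DMSO, too few to test, and Cd74, the invariant chain, had 167 CPM with cGAMP and 151 CPM in DMSO, a change of 0.14 that was not called; it was named after its values were seen.

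All 5 genes of the immunoproteasome and its PA28 cap rose, with a median of 1.45, and Psmb9 had 73.4, 55.3 and 58.1 CPM with cGAMP, against 12, 13.1 and 12.4 CPM in DMSO, a change of 2.31 ± 0.19 (adjusted p = 2.07e-07). Of 14 constitutive 20S genes 5 rose, with a median of 0.10 that turned to -0.03 with library size alone. For 8 of the 14 the interval lay within 0.26 of 0. Psma4, the member with the largest change, rose by 0.45 ± 0.05.

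Ligands that instruct lymphocytes rose widely, 19 of 22 tested, with a median of 2.38, and 1 fell. Tnfsf10, which encodes the death ligand TRAIL, had 60.8, 48.9 and 59.3 CPM with cGAMP, against 0.528, 0.457 and 0.647 CPM in DMSO, a change of 6.71 ± 0.38 (adjusted p = 7.81e-09). Cd40, a receptor for T cell help, had 84.4, 45 and 52.8 CPM with cGAMP, against 1.61, 1.44 and 0.588 CPM in DMSO, a change of 5.6 ± 0.60 (adjusted p = 5.25e-06). Slamf7 was read at 1.93, 0.534 and 0.732 CPM with cGAMP, against no count in DMSO, a difference of at least 71.1-fold, or 39.7-fold without cGAMP replicate 1. Vsir, which encodes the checkpoint ligand VISTA, had 38.1, 34.6 and 28.3 CPM with cGAMP, against 72.4, 57.2 and 50.6 CPM in DMSO, a change of -0.83 ± 0.15 (adjusted p = 0.000339).

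Chemokines of the interferon-inducible kind rose steeply. Of 16 tested chemokine genes 10 rose and none fell. Cxcl10, a T cell attractant, had 1221, 974 and 1183 CPM with cGAMP, against 14.3, 10.1 and 10.9 CPM in DMSO, a change of 6.58 ± 0.40 (adjusted p = 1.56e-08), and stood at rank 54 of all genes by length-scaled level with cGAMP, against rank 5973 in DMSO. Cxcl11, which shares its receptor, had 85.2, 31.6 and 39 CPM with cGAMP, against 0.543, 0.457 and 0.392 CPM in DMSO, a change of 6.79 ± 0.81 (adjusted p = 1.45e-05). Cxcl9 was read at 2.86, 1.11 and 1.46 CPM with cGAMP, against no count in DMSO, a difference of at least 119-fold. Ccl12, a monocyte attractant, had 0.526, 0.999 and 0.194 CPM with cGAMP and no count in DMSO, at least 34.9-fold apart, or 23.5-fold without cGAMP replicate 2. Cxcl2, a neutrophil attractant, had 10.8 CPM with cGAMP and 6.83 CPM in DMSO and was not called; it was named after its values were seen.

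Of 27 tested cytokine and growth factor genes 9 rose and 3 fell. Tnf had 297, 270.2 and 280.0 CPM with cGAMP, against 68.5, 86.9 and 60.3 CPM in DMSO, a change of 1.97 ± 0.16 (adjusted p = 1.75e-07). Il6 had 0.456, 0.279 and 0.258 CPM with cGAMP and no count in DMSO, which makes it at least 21.3-fold higher. Both inflammatory cytokine genes were above DMSO in 3 of 3 cGAMP libraries, Tnf at a high level and Il6 at a few reads. Il16 fell (-0.44 ± 0.10), and the fall of the growth factor gene Igf1 (-0.51 ± 0.15) was lost without cGAMP replicate 1 (-0.39).

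Some genes of NF-kB and its feedback inhibitors rose, by modest amounts. Of 26 tested NF-kB and IkB genes 13 rose and 1 fell, with a median of 0.48. Among the NF-kB subunit genes, named after their values were seen, Nfkb1 rose, and Nfkb2, Rela, Relb and Rel were not called. Nfkbia, which encodes the inhibitor IkB alpha, had 157, 126 and 140.0 CPM with cGAMP, against 111, 88.1 and 86.6 CPM in DMSO, a change of 0.57 ± 0.19 (adjusted p = 0.0345) that was lost without cGAMP replicate 1 (0.48) or 3 (0.57) or DMSO replicate 2 (0.51) or 3 (0.50). Its promoter is shown with the 1 match of the NF-kB motif (GGGA, any base, then TTTCC), read on the other strand, in capitals.
Nfkbia, chr12:55492598-55492897, minus strand: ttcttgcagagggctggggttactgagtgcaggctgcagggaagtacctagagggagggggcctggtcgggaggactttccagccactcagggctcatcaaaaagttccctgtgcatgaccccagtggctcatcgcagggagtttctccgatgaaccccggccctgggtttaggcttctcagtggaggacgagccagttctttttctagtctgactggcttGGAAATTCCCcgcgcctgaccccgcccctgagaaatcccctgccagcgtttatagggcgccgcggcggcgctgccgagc
That match begins 29 bases before the start. The letters were in a promoter of 0.545% of all genes with one in the table (57 of 10459). They were in 1.62% of genes at least 2-fold higher (10 of 618) and in 4.35% of those at least 8-fold higher (8 of 184). Among genes that rose by less than 2-fold, as Nfkbia did, they were in 0.532% (6 of 1127). Tnfaip3, which encodes the deubiquitinase A20, rose by 1.17 ± 0.29, and Nfkbiz by 1.4 ± 0.27. The rise of Nfkbie, another inhibitor gene (1.61 ± 0.47), was lost without cGAMP replicate 1 (1.2) or DMSO replicate 3 (1.46). Otulin, which trims linear ubiquitin chains, fell (-0.34 ± 0.09). Zfp36, which speeds the decay of cytokine mRNAs, had 278, 179 and 225 CPM with cGAMP, against 80.0, 69.2 and 64.2 CPM in DMSO, a change of 1.68 ± 0.22 (adjusted p = 3.14e-05).

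Of 26 immediate early genes 11 rose and 5 fell. Egr1 had 217, 156 and 194 CPM with cGAMP, against 64.7, 95.4 and 57.1 CPM in DMSO, a change of 1.38 ± 0.25 (adjusted p = 0.000529), while Klf4 fell (-1.11 ± 0.17). Of 16 MAP kinase phosphatase and Sprouty-type genes 7 rose and 3 fell. In both lists the share that fell was near the 19.8% of all genes. Dusp2 had 70.8, 53.2 and 61.7 CPM with cGAMP, against 13.8, 14.8 and 12.8 CPM in DMSO, a change of 2.17 ± 0.31 (adjusted p = 7.76e-05). Dusp14 had 0.597, 0.534 and 0.797 CPM with cGAMP, against 3.21, 3.26 and 2.39 CPM in DMSO, a change of -2.2 ± 0.28 (adjusted p = 8.92e-06), the steepest fall in that list.

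Enzymes of inflammatory metabolism included some of the steepest rises. Acod1, which makes itaconate, had 1449.7, 946 and 834 CPM with cGAMP, against 16.5, 17.2 and 10.3 CPM in DMSO, a change of 6.2 ± 0.64 (adjusted p = 3.82e-06). Nos2, the inducible nitric oxide synthase, had 65.1, 66 and 70.1 CPM with cGAMP, against 2.3, 4.24 and 3.94 CPM in DMSO, a change of 4.27 ± 0.34 (adjusted p = 2.7e-07). Gch1, which makes its cofactor, rose by 2.11 ± 0.13. These were 3 of 5 genes that rose of 11 tested in the list, and 1 fell.

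Genes of inflammasomes and lytic death rose in 13 of 19 tested cases and fell in 1. Casp4, the table's symbol for the gene whose product binds bacterial lipopolysaccharide in the cytosol, had 72.9, 57.4 and 61.3 CPM with cGAMP, against 8.31, 6.84 and 6.39 CPM in DMSO, a change of 3.15 ± 0.26 (adjusted p = 3.06e-07). Mlkl, the pore of necroptosis, had 145, 132 and 127 CPM with cGAMP, against 26.1, 29.1 and 25.6 CPM in DMSO, a change of 2.32 ± 0.14 (adjusted p = 2.08e-09). Pycard, the adaptor ASC, had no count in any of the 6 libraries. Of 21 genes of the BCL2 family and p53 targets 8 rose and 2 fell. Cdkn1a, the cell cycle inhibitor p21, had 570.1, 461 and 498 CPM with cGAMP, against 195, 195 and 193 CPM in DMSO, a change of 1.39 ± 0.12 (adjusted p = 1.2e-07). Bcl2l11, which encodes the death-promoting protein BIM, had 134, 66.9 and 73.5 CPM with cGAMP, against 33, 27.2 and 24.3 CPM in DMSO, a change of 1.7 ± 0.39 (adjusted p = 0.00322), and Bbc3, which encodes PUMA, rose by 1.01 ± 0.14. Bmf, another death-promoting member (-1.56 ± 0.29), and Bcl2, which blocks death (-0.89 ± 0.16), fell.

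Macrophage identity genes moved little as a list, with some sharp exceptions. Of 24 tested identity genes 6 rose and 4 fell, with a median of -0.03. With library size alone 6 rose and 7 fell. Mertk, Cd163 and Marco, also in the list and named after their values were seen, had no count in any of the 6 libraries. Fcgr1, the high-affinity Fc receptor, had 277, 190.3 and 209 CPM with cGAMP, against 18.3, 17.1 and 19.1 CPM in DMSO, a change of 3.63 ± 0.20 (adjusted p = 3.31e-09). Axl, a receptor for dying cells, rose by 3.42 ± 0.40. Sirpa, the receptor for the signal CD47, had 195, 229.8 and 202 CPM with cGAMP, against 391, 353 and 351 CPM in DMSO, a change of -0.81 ± 0.10 (adjusted p = 6.23e-06). Csf1r, the growth factor receptor of macrophages, fell (-0.24 ± 0.08), a call that was lost without cGAMP replicate 2 (-0.20) or 3 (-0.23) or DMSO replicate 1 (-0.19) or 3 (-0.24). Among migration receptors, 7 of 23 rose and 4 fell. Cx3cr1, the fractalkine receptor, had 22.6, 20.9 and 21 CPM with cGAMP, against 121, 85.9 and 94.2 CPM in DMSO, a change of -2.22 ± 0.22 (adjusted p = 1.32e-06), and every cGAMP library was below every DMSO library. Ccrl2, which presents chemerin, had 59.5, 41.5 and 50.7 CPM with cGAMP, against 1.31, 0.766 and 0.941 CPM in DMSO, a change of 5.65 ± 0.43 (adjusted p = 1.82e-07). P2ry14, a receptor for sugar nucleotides, had 0.298, 0.139 and 0.237 CPM with cGAMP and no count in DMSO, at least 14.5-fold apart.

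The other steep falls with a mean of at least 1 CPM were of low to moderate genes. Among them were Cd101, an inhibitory receptor (-2.1 ± 0.34), Angptl4, a secreted inhibitor of lipoprotein lipase (-2.07 ± 0.38), the adaptor gene Sla (-1.87 ± 0.29) and Fndc10 (-1.85 ± 0.38). The computed falls of Gm12992 and Npcd were steeper but rest on few or no reads with cGAMP, and the loci overlap other genes (Srsf4 and Gm12978 for Gm12992, Nptxr and Cbx6 for Npcd). Gm12992 had 0, 0 and 0 CPM with cGAMP, against 5.34, 4.73 and 5.41 CPM in DMSO, and its call was lost without any 1 of the cGAMP libraries or DMSO replicate 1 or 3. Npcd had 0, 0.139 and 0 CPM with cGAMP, against 3.54, 4.05 and 2.06 CPM in DMSO, and its call was lost without cGAMP replicate 1 (-5.53) or 3 (-5.66), against -6.2 with all libraries; without cGAMP replicate 2 no cGAMP read was left.

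**Figure D3:**
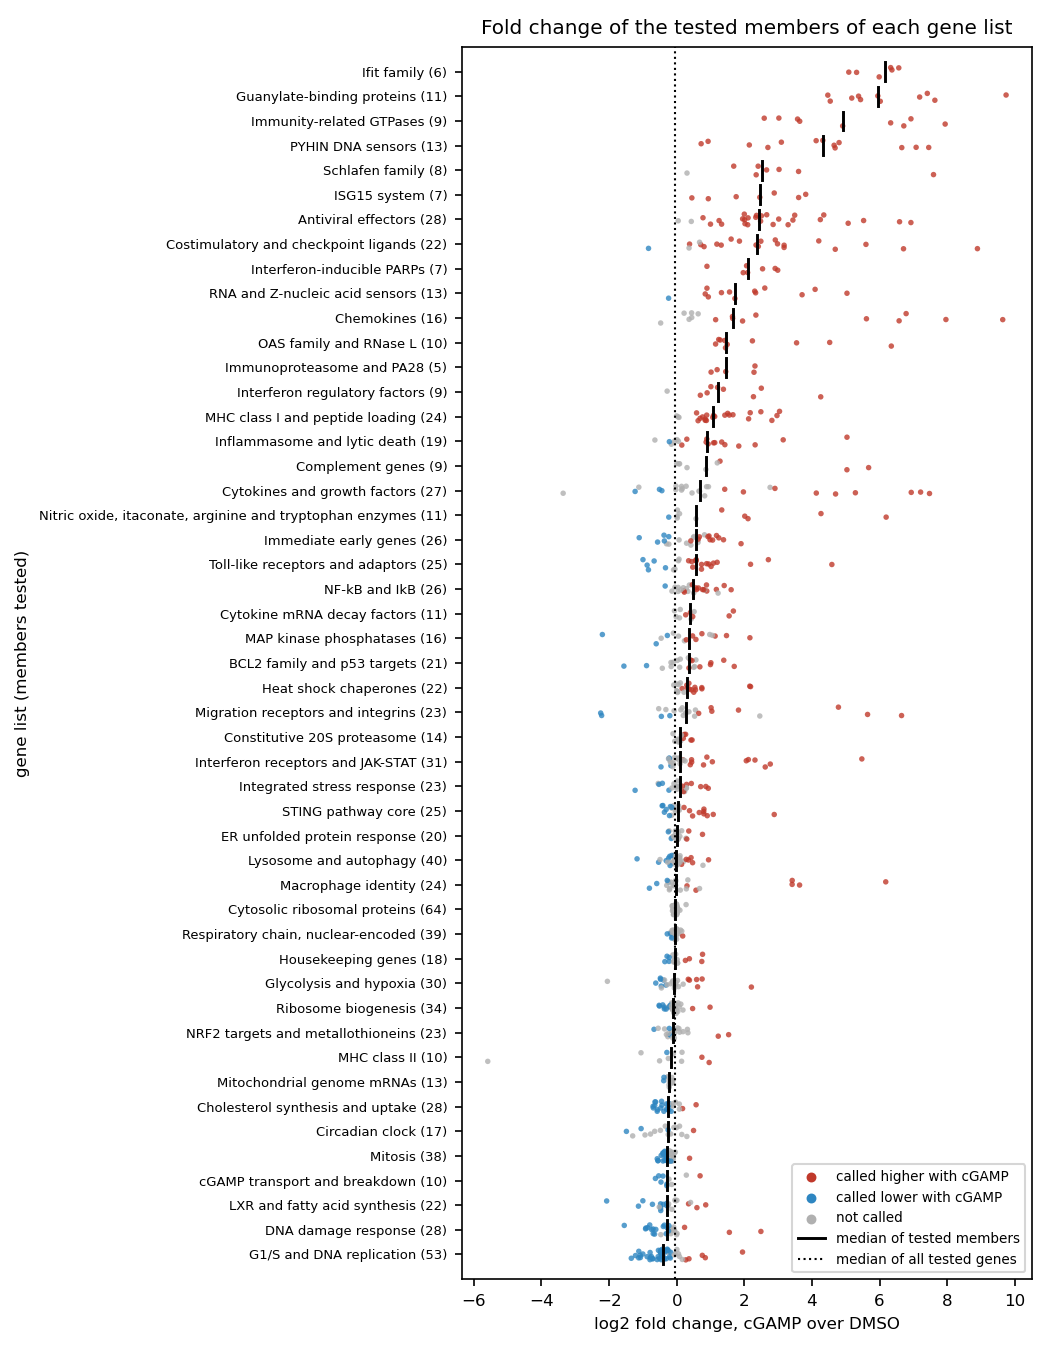
Log2 fold change, cGAMP over DMSO, of every tested member of the 49 lists with at least 5 tested members, ordered by their median (black bar); red members were called higher with cGAMP, blue lower, and grey not called, and the dotted line is the median of all tested genes at -0.06. The Ifit, GBP, IRG and PYHIN lists stand at the top with medians above 4, and G1/S and DNA replication at the bottom with -0.41. Members with no count in DMSO are drawn at their fitted value, which depends on the prior count.

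Genes of DNA replication fell together and by modest amounts. Of 53 G1/S and replication genes 40 fell and 5 rose, with a median of -0.41, against -0.06 for all genes and 19.8% of all genes called lower. Ccne2, a cyclin of S phase entry, had 14.3, 19 and 18.8 CPM with cGAMP, against 39.3, 48.9 and 43.5 CPM in DMSO, a change of -1.34 ± 0.14 (adjusted p = 1.45e-06), though it overlaps Ints8, which has more reads. E2f2, an activator of the same genes, had 13.2, 13.2 and 11.8 CPM with cGAMP, against 28.5, 27.7 and 27.2 CPM in DMSO, a change of -1.12 ± 0.09 (adjusted p = 3.46e-08). E2f7, a repressor of the family, fell (-1.22 ± 0.11). In each of these genes every cGAMP library was below every DMSO library. Among the members that rose were Ccnd1, the cyclin that senses growth signals, at 0.76 ± 0.13, Ccnd2 at 1.95 ± 0.32, and Mcm10, which starts replication forks, at 0.85 ± 0.08. Within the cGAMP group the replication genes were highest in replicate 3 for 41 of 53 and highest in replicate 1 for 1 of 53.

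E2F factors bind TTTCCCGC and TTTGGCGC, and 34.1% of the G1/S list held either in a promoter (14 of 41), against 3.39% of all. Among these 14, Rfc3 rose, Mcm6 and Pola1 were not called, and the others fell. The promoters of Cdc6 and Cdt1, members that fell and were picked for their match, are shown with it in capitals.
Cdc6, chr11:98907901-98908200, plus strand: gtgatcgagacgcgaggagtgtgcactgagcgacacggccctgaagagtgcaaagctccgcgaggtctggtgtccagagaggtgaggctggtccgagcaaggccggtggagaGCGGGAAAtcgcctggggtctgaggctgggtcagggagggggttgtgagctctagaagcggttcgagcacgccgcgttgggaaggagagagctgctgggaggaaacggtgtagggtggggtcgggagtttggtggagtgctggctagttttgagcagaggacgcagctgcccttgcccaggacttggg
Cdt1, chr8:122567765-122568064, plus strand: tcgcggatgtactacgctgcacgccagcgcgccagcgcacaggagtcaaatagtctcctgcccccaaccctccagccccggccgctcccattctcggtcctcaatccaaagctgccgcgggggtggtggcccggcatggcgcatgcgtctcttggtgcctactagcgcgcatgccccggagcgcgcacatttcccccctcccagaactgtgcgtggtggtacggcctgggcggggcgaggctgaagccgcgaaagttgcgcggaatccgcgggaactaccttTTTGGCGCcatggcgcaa
Cdc6, which loads the MCM helicase, changed by -1.08 (24.6 CPM with cGAMP and 51.8 CPM in DMSO), and its match begins 138 bases before the start on the other strand. Cdt1, its partner, changed by -0.48 (74.2 CPM with cGAMP and 104 CPM in DMSO). Over all genes at least 1.5-fold lower with cGAMP, TTTCCCGC was in 4.22% and TTTGGCGC in 0.905%, against 2.34% and 1.10% of all.

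Mitotic and DNA repair genes also leaned lower. Of 38 mitosis genes 23 fell and 1 rose, with a median of -0.28, against -0.06 and 19.8% lower for all genes. Incenp, of the chromosomal passenger complex, had 112, 123 and 123 CPM with cGAMP, against 180.3, 175 and 179.6 CPM in DMSO, a change of -0.58 ± 0.07 (adjusted p = 4.24e-06), and Cenpe, a kinetochore motor, rose by 0.38 ± 0.07. Of 28 DNA damage genes 16 fell and 3 rose. Ung, which removes uracil from DNA, had 8.74, 12.3 and 13 CPM with cGAMP, against 30.2, 36.3 and 33.1 CPM in DMSO, a change of -1.55 ± 0.26 (adjusted p = 0.000226). Brca1 had 36.9, 37.1 and 37 CPM with cGAMP, against 68.2, 65.4 and 76.6 CPM in DMSO, a change of -0.92 ± 0.07 (adjusted p = 1.92e-08). Among those that rose was Trex1, the exonuclease that destroys cytosolic DNA ahead of cGAS, with 170.2, 124 and 143 CPM with cGAMP, against 30.3, 24.3 and 23.2 CPM in DMSO, a change of 2.49 ± 0.34 (adjusted p = 4.67e-05), and Atm, the kinase of double-strand breaks, at 1.56 ± 0.20. Trex1 overlaps the read-through gene Atrip-trex1, and reads of the pair cannot be told apart here.

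Lipid synthesis leaned lower. Of 28 tested genes of cholesterol synthesis and uptake 20 fell and 2 rose, with a median of -0.25, against -0.06 for all genes. Dhcr7, the last step to cholesterol, had 66, 70.0 and 66.3 CPM with cGAMP, against 108, 106 and 115 CPM in DMSO, a change of -0.70 ± 0.07 (adjusted p = 1.06e-06). Mvd (-0.69 ± 0.06) and Acat2 (-0.65 ± 0.07), earlier in the pathway, fell. Of 22 genes of fatty acid synthesis and LXR 10 fell and 3 rose. Scd2, a desaturase, had 1352, 1258 and 1398 CPM with cGAMP, against 3121, 2648 and 3013 CPM in DMSO. Its change was -1.13 ± 0.13 (adjusted p = 5.88e-06), and its absolute loss in CPM was the largest of all called genes. Elovl6, which lengthens fatty acids (-1.0 ± 0.16), the desaturase gene Scd1 (-0.72 ± 0.08) and Fasn, the fatty acid synthase (-0.48 ± 0.09), fell. Plin2, a coat protein of lipid droplets, rose by 0.86 ± 0.09, and Abcg1, a cholesterol exporter, by 0.60 ± 0.15.

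Ribosomal protein genes and nuclear-encoded genes of the respiratory chain lay near DMSO under TMM. None of 64 ribosomal protein genes was called, and for 62 of them the interval lay within 0.26 of 0. With library size alone 49 of the 64 were called lower. Of 39 nuclear-encoded respiratory chain genes 33 lay within 0.26 of 0, and 30 were called lower with library size alone. The lysosome and autophagy list had 6 rises and 7 falls of 40, shares near those of all genes. Tfeb, the master regulator of lysosome genes, had 7.84, 8.15 and 6.85 CPM with cGAMP, against 18.6, 16.9 and 15.9 CPM in DMSO, a change of -1.17 ± 0.10 (adjusted p = 5.5e-08), while Npc2, which moves cholesterol out of lysosomes, rose by 0.94 ± 0.08. Transcripts of the mitochondrial genome took 2.36% ± 0.145 of counts with cGAMP and 2.92% ± 0.160 in DMSO (SD, n = 3 each). The 13 mRNAs of that genome had a median change of -0.22, with a range of -0.39 to -0.12. Of these 2 were called lower (15.4%, against 19.8% of all genes), and for none did the interval lie within 0.26 of 0. The largest called loss in CPM among them, in CYTB (-0.38 ± 0.13), was not called without cGAMP replicate 1 (-0.35) or 3 (-0.34) or DMSO replicate 2 (-0.33) or 3 (-0.38).

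Heat shock genes rose in 13 of 22 tested cases and none fell, with a median of 0.31. Hspa1b, an inducible HSP70 gene, had 62.2, 31.2 and 41.9 CPM with cGAMP, against 9.66, 8.13 and 12.1 CPM in DMSO, a change of 2.18 ± 0.33 (adjusted p = 0.000134), and its near-identical neighbour Hspa1a rose by 2.16 ± 0.30. Of 9 tested complement genes 3 rose and none fell, but the call of C2 rested on reads in cGAMP replicate 1 alone and was also lost without any 1 DMSO library. Of 30 glycolysis and hypoxia genes 6 rose and 6 fell, and of 34 ribosome biogenesis genes 2 rose and 8 fell; the shares that fell were near the 19.8% of all genes. The circadian clock list had 1 rise and 3 falls of 17. In the integrated stress response list 7 of 23 rose and 4 fell (3 and 6 with library size alone), with Ppp1r15a, which ends the response, at 0.93 ± 0.11. The unfolded protein response list had 3 rises and 2 falls of 20 (2 and 5 with library size alone), Hspa5, the chaperone BiP, among the rises at 0.36 ± 0.10. Keap1, the inhibitor of NRF2, had 247, 243 and 238 CPM with cGAMP, against 99.5, 104 and 107 CPM in DMSO, a change of 1.23 ± 0.07 (adjusted p = 1.33e-09), in a list where 2 of 23 rose and 3 fell.

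Some genes with no count in DMSO were read with cGAMP; 122 of the tested genes had no count in DMSO and could differ in 1 direction only. Pax5, the B lineage transcription factor, had 2.98, 2.23 and 1.7 CPM with cGAMP, at least 147-fold above DMSO. Of the 7 B cell markers, Pax5 included, 3 had no count in any of the 6 libraries, among them Ms4a1 and Cr2, and their summed level, nearly all of it from Ighm, was 112 to 193 CPM with cGAMP and 64 to 103 CPM in DMSO. Klrk1, which encodes the receptor NKG2D, had 2.47, 1.37 and 1.21 CPM with cGAMP, at least 109-fold above DMSO, and the 5 other NK cell markers had no count. Kalrn, a guanine nucleotide exchange factor known from neurons, lay at least 142-fold higher (94.1-fold without cGAMP replicate 1), Tacr2, a neurokinin receptor, at least 109-fold, and Slco2a1, a prostaglandin carrier, at least 83.8-fold. All of these stayed under 4 CPM. Dll1, a Notch ligand, had 4.21, 3.93 and 4.2 CPM with cGAMP, against 0, 0.0589 and 0 CPM in DMSO, and its change of 7.45 ± 0.49 was 6.85 without DMSO replicate 1 and rested on no DMSO read without replicate 2.

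Genes that rose at least 2-fold lay side by side at many loci. In GRCm38, 17 runs of at least 4 tested neighbours with no other tested gene between them held 120 of these genes. The longest, on chromosome 1 from 85026349 to 85709998, held 13 genes, with Sp100, Sp110 and Sp140, nuclear body proteins, and 10 named by clone or locus numbers. The next, on chromosome 11 from 48865245 to 49135387, held 11 genes from Irgm1 to Olfr56, with a median of 4.35. The 6 Ifit genes on chromosome 19 (34550550 to 34662981) formed a run of their own with a median of 6.16, and 5 GBP genes on chromosome 3 (142496934 to 142638008) one with a median of 7.19. Other runs held 7 further GBP-locus genes on chromosome 5, the Oas genes, the Ifi200 genes, the Schlafen genes, Phf11, Ms4a and Trim30 genes, and Psmb9, Tap1, Psmb8 and Tap2 on chromosome 17. Members of several runs are recent copies of each other, and reads that fit more than one copy may have been divided, so single values there are uncertain.

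**Figure D4:**
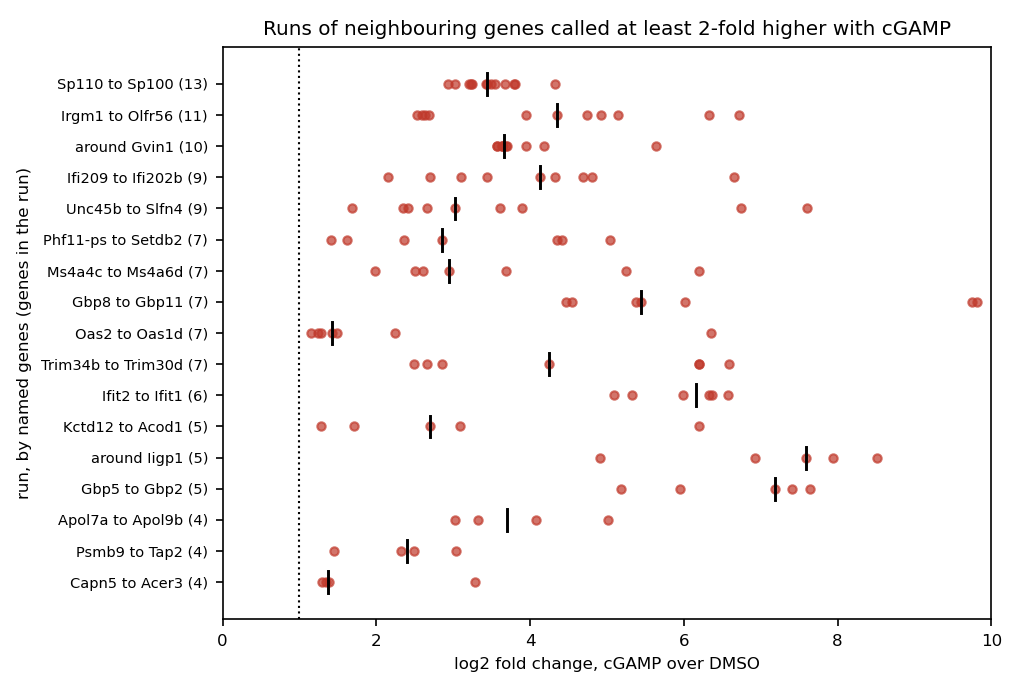
Log2 fold change, cGAMP over DMSO, of each gene (red points) in the 17 runs of neighbouring genes, with the run's median as a black bar and the 2-fold limit as a dotted line; runs are labelled by their first and last gene with a name other than a clone number. The run medians go from 1.37 around Capn5 and Acer3 to 7.59 around Iigp1.

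The 3 cGAMP libraries differed in the level of the genes that rose. Among the genes at least 2-fold higher with cGAMP and with a mean of at least 1 CPM there, replicate 1 was the highest of the 3 for 526 of 652 genes. Over the interferon-inducible lists it was the highest for 96 of 108, at a median of 0.15 log2 units above the mean of the 3, while replicate 2 was at -0.12 and replicate 3 at -0.04. The difference was wider in the GBP genes, with 0.33, -0.23 and -0.12 in replicates 1, 2 and 3. In the housekeeping list the same medians were -0.02, 0.00 and -0.00. In DMSO the interferon-inducible lists were at 0.08, 0.04 and -0.12 in replicates 1, 2 and 3. The first principal component of the 6 libraries held 64.3% of the variance and separated cGAMP from DMSO, and the second held 11.2%.

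Against SB24011 alone, which was given at the same 20 uM for the same 6 h, cGAMP differed in 7911 of 14650 genes (54.0%), with 4060 higher (27.7%) and 3851 lower (26.3%). This comparison uses the same cGAMP libraries as the one with DMSO. Of the 110 tested interferon-inducible genes 104 were higher with cGAMP than with SB24011 and 2 were lower, with a median of 2.40. The lower ones, named after their values were seen, were Mavs and Gbp8, and Gbp8 was called higher with cGAMP than in DMSO. Iigp1 had 215, 118 and 140.1 CPM with cGAMP, against 2.89, 0.742 and 1.46 CPM with SB24011, a difference of 6.52 ± 0.56 (adjusted p = 2.37e-07). Gbp2b had 524, 294 and 319 CPM with cGAMP, against 9.76, 3.55 and 4.4 CPM with SB24011, a difference of 6.0 ± 0.62 (adjusted p = 1.62e-06). Cxcl11 had 85.2, 31.6 and 39 CPM with cGAMP, against 0.900, 0.431 and 0.530 CPM with SB24011, a difference of 6.38 ± 0.78 (adjusted p = 8.66e-06). Rsad2 had 4442, 4028 and 4370.0 CPM with cGAMP, against 239, 61.6 and 125 CPM with SB24011, a difference of 4.91 ± 0.40 (adjusted p = 1.51e-07). In these genes the SB24011 libraries differed among themselves, replicate 1 being the highest, and none reached a cGAMP library.

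Several genes that fell with cGAMP stood lower still with SB24011. Of the 53 replication genes 40 were higher with cGAMP than with SB24011 and 1 was lower. Ccne2 had 14.3, 19 and 18.8 CPM with cGAMP, against 5.89, 6.52 and 5.88 CPM with SB24011, a difference of 1.51 ± 0.15 (adjusted p = 2.97e-07). Ung had 8.74, 12.3 and 13 CPM with cGAMP, against 3.88, 5.28 and 5.05 CPM with SB24011, a difference of 1.26 ± 0.27 (adjusted p = 0.00101). The differences of Brca1 (0.09 ± 0.07, 95% interval -0.05 to 0.24) and Cx3cr1 (0.27 ± 0.21, 95% interval -0.19 to 0.72) were not called. The integrated stress response list was mostly lower with cGAMP than with SB24011, in 20 of 23 cases (1 higher), with a median of -1.19. Ddit3, a factor of that response, had 20.8, 23.7 and 18.5 CPM with cGAMP, against 109.5, 119 and 121 CPM with SB24011, a difference of -2.47 ± 0.17 (adjusted p = 1.48e-08). S1pr1, a receptor for sphingosine 1-phosphate, had 0.246, 0.395 and 0.237 CPM with cGAMP, against 11.7, 10.6 and 11.6 CPM with SB24011, a difference of -5.28 ± 0.46 (adjusted p = 1.01e-07). Car6, a carbonic anhydrase, and Extl1, a glycosyltransferase, differed by -6.97 ± 0.56 (adjusted p = 1.1e-07) and -5.76 ± 0.31 (adjusted p = 2.43e-10), and neither was called between cGAMP and DMSO. Hspa1b, which rose with cGAMP, had 62.2, 31.2 and 41.9 CPM with cGAMP, against 1.3, 1.16 and 0.977 CPM with SB24011, a difference of 5.3 ± 0.41 (adjusted p = 8.56e-08).

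**Figure D5:**
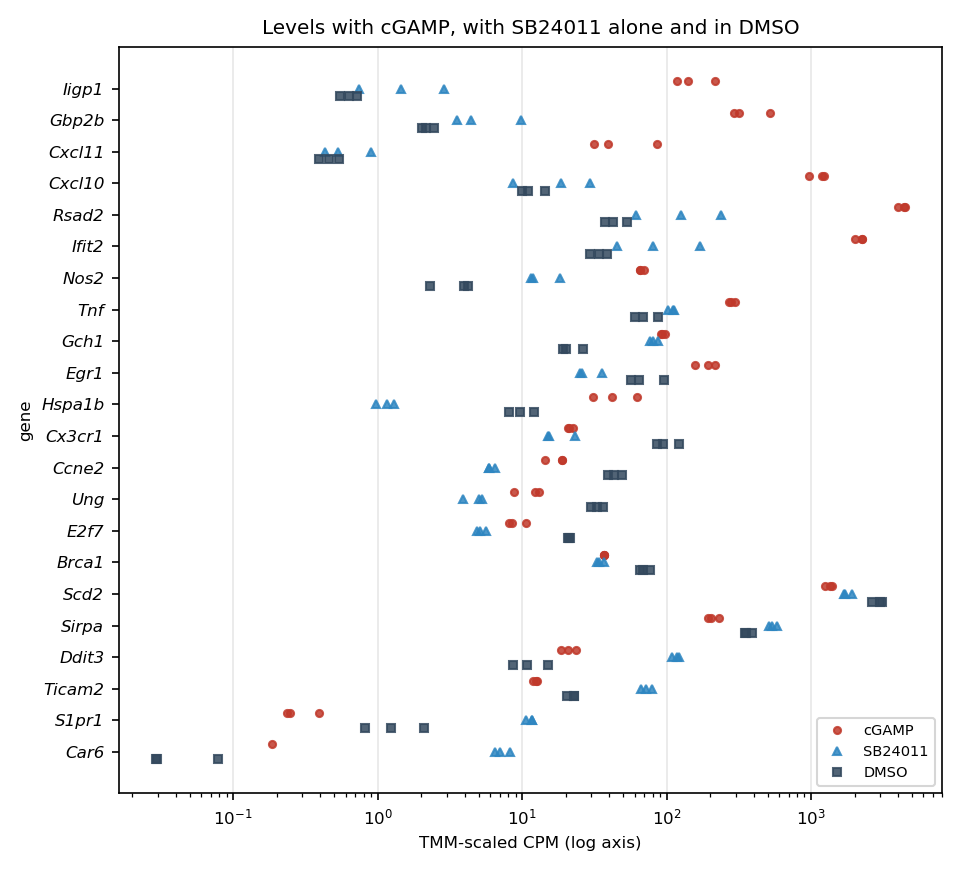
TMM-scaled CPM on a log axis for 22 genes in each library with cGAMP (circles), SB24011 (triangles) and DMSO (squares); libraries with no count are not drawn (2 cGAMP libraries for Car6). The interferon-inducible genes at the top lie far to the right with cGAMP, while Cx3cr1, Ccne2, Ung, E2f7 and Brca1 lie to the left of DMSO with cGAMP and with SB24011.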

How the data were processed

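Libraries were grouped by their treatment labels, 3 with cGAMP, 3 with SB24011 and 3 with DMSO. RNA was taken with the RNeasy mini plus kit and made into TruSeq Stranded mRNA libraries, per the labels' protocols. Read counts per gene and FPKM values were made by the authors and deposited in 1 table of 45777 genes, and the submitters' processing notes list StringTie 2.1.3b, HISAT2 2.1.0, Trimmomatic 0.38 and Bowtie2 2.3.4.1, with the builds GRCm38 and mm10. The strand setting of the counting is not given in the sources used here, so reads of overlapping genes cannot be told apart. A deposited quantile-normalized table was not used.

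Counts of all 18 libraries were fitted together in edgeR 4.0.16 (R 4.3.3) with TMM scaling, filterByExpr, a prior count of 0.125 and robust quasi-likelihood with 12 residual degrees of freedom, since 6 groups then share 1 estimate of the spread. Benjamini-Hochberg adjustment ran over 14650 genes, and every adjusted p is from edgeR's quasi-likelihood test. Counts of 45165780 to 65810517 per library set the precision, and bounds on folds cover counting error only. On simulated data for cGAMP against DMSO (14436 genes), 92% of rises and 88% of falls of log2 1 were recovered. For log2 0.5 it was 64% of rises and 56% of falls. Each change was placed in 50 genes with a mean above 1 CPM. Recovery at lower levels, or with as many genes changed as in the data, was not tested. FPKM was used for ranks of level and for the limma alternatives. Promoters (250 bases before to 50 after the start) and coordinates came from RefSeq tables for GRCm38, in which 45679 gene IDs were found. Alternatives used DESeq2 1.42.0 and limma 3.58.1 on log2(FPKM + 1) and log2(FPKM + 0.1), other scalings and filters, the 2 groups compared alone, a block, a test against 1.5-fold, and each library left out in turn.

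The genes described in full were the 10 steepest called rises and falls with at least 1 CPM and no overlap. To these came the 8 largest called gains and losses in CPM, and up to 3 called members each way in each of 50 lists. The 8 highest genes with no count in DMSO and a short list of pathway genes were also taken. Some genes that this rule names are not reported here. Others are said to be chosen after their values were seen. The lists and members were chosen with earlier results of these data known.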

Additional observations from a re-analysis of the deposited data

How the results depend on the processing

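Leaving out any 1 library gave 4171 to 4651 genes called between cGAMP and DMSO, against 5193 with all of them, and DESeq2 called 5229. Among single genes named, 3549 values kept their direction and side of the threshold, 307 lost the call, 7 gained it and 11 changed sign. Of counts over the lists, 1379 stayed within 1.5 times and 221 moved. The cause of these moves was not tested. With library size alone 5149 genes were called lower with cGAMP, 429 of them at least 2-fold, 1836 lay near 0, and 2471 were higher and 6124 lower than with SB24011. A test against a change of 1.5-fold left 1031 calls, 811 higher and 220 lower, 157 of the falls at least 2-fold. With limma on log2(FPKM + 1), 5014 genes were lower, 406 at least 2-fold higher, 55 at least 2-fold lower, 4741 near 0 and 2633 higher than with SB24011, and there were 9 runs of neighbours. With log2(FPKM + 0.1), 4989 were lower, 1754 near 0 and 2678 higher than with SB24011. A mean of at least 1 CPM left 166 falls of at least 2-fold, and no filter gave 5366 genes near 0. Motifs on the gene's own strand alone were in 9.71% (ISRE) and 23.9% (CCAAT) of genes at least 2-fold higher. The share of called genes that were higher with cGAMP was 48.9% with DESeq2, 54.4% with only the 2 groups fitted and 24.0% with limma on log2(FPKM + 1).

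Psma3 changed sign with limma (-0.0178 and -0.0182 at pseudocounts of 1 and 0.1), as did Atp5d (0.201 and 0.203) and, at 0.1, Car6 (-0.00433). Irf3 was at 0.0119 with only the 2 groups fitted. Without single libraries Irf3 ranged over -0.111 to 0.0332, Car6 over -4.32 to 1.02 and Sned1 over -0.694 to 0.726, none of which was called against DMSO. With the library number as a replicate block 6418 genes were called, 2734 higher and 3684 lower. Deviations of same-numbered cGAMP and DMSO libraries correlated across genes at 0.143, 0.160 and 0.0242, each library best with its own number, a hint from the data and not the design, so the numbers were not taken to pair the samples. Genes with few reads limit what depth can show: a gene at 0 in DMSO gives only a bound.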

Other observations

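Several steep changes lay outside the lists; these genes were chosen after their values were seen, among protein-coding genes of at least 10 CPM on average. Hdc, which makes histamine, had 46.8, 34.3 and 34.1 CPM with cGAMP, against 0.837, 0.678 and 0.470 CPM in DMSO, a change of 5.83 ± 0.43 (adjusted p = 1.05e-07). Lipg, an endothelial-type lipase, had 53.2, 31.9 and 35.1 CPM with cGAMP, against 0.969, 1.06 and 0.745 CPM in DMSO, a change of 5.42 ± 0.54 (adjusted p = 2.37e-06). Fcgr4, an activating Fc receptor, had 93.4, 49.7 and 57.9 CPM with cGAMP, against 2.91, 1.95 and 1.84 CPM in DMSO, a change of 4.9 ± 0.48 (adjusted p = 2.29e-06). All 3 of these genes were above DMSO in 3 of 3 cGAMP libraries. Pdcd1, which encodes the checkpoint receptor PD-1, had 84.9, 74.5 and 70.1 CPM with cGAMP, against 8.37, 9.65 and 7.31 CPM in DMSO, a change of 3.18 ± 0.17 (adjusted p = 1.86e-09). Peli1, a ubiquitin ligase of receptor signalling, had 381, 337 and 365 CPM with cGAMP, against 33.9, 31.6 and 31.7 CPM in DMSO, a change of 3.48 ± 0.12 (adjusted p = 3.58e-12). Daxx, a chaperone of histone H3.3, rose by 2.54 ± 0.19.

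Falls outside the lists were smaller. Rab3il1 had 3.6, 6.27 and 4.5 CPM with cGAMP, against 14.1, 16.1 and 16.3 CPM in DMSO, a change of -1.7 ± 0.18 (adjusted p = 1.3e-06). Wdhd1, a replisome protein, had 22.5, 27 and 29.2 CPM with cGAMP, against 72.1, 69.6 and 69.6 CPM in DMSO, a change of -1.43 ± 0.10 (adjusted p = 6.15e-09). Sesn1, a stress-responsive inhibitor of growth signalling, had 13.9, 16.4 and 16.9 CPM with cGAMP, against 45.1, 34.4 and 42.5 CPM in DMSO, a change of -1.37 ± 0.17 (adjusted p = 8.62e-06). In each of these, every cGAMP library was below every DMSO library. Lpin1, a phosphatidate phosphatase (-1.23 ± 0.14), and Prkag2, a subunit of AMP-activated kinase (-1.2 ± 0.19), also fell.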
